A study of Mus musculus with 24 samples.

Results

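The comparison was between a ketogenic and a control diet in the hippocampus of WT mice, and its members were the 8 libraries that the labels place in those groups, out of 24 in the series. All were female mice of the strain B6129SF2/J (WT), an F2 hybrid stock in which each animal carries its own mix of alleles from both founder strains. From 3 months of age the mice ate 1 diet for 6 months. The control diet (4 mice, libraries WT_C_1 to WT_C_4) held 70% carbohydrate, 20% long-chain triglycerides and 10% protein at 4.1 kcal/g, and the ketogenic diet (4 mice, WT_K_1 to WT_K_4) held no carbohydrate, 90% long-chain triglycerides and 10% protein at 6.7 kcal/g. The diets therefore differed in carbohydrate, fat and energy density together, and effects of these cannot be told apart. The other 16 libraries are 4 of WT mice on a control diet with medium-chain triglycerides (MCT) and 12 of 3xTg-AD mice (3xTg), a line made with transgenes for mutant human APP and MAPT driven by a Thy1 cassette, on the control (3), ketogenic (5) and MCT (4) diets.

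Without dietary carbohydrate the liver turns fatty acids into the ketone bodies beta-hydroxybutyrate and acetoacetate, which cross into the brain through monocarboxylate transporters. Neurons and glia convert them to acetyl-CoA with the enzymes BDH1, OXCT1 and ACAT1, and burn them in the tricarboxylic acid cycle in place of part of the glucose. Ketogenic diets are used against drug-resistant epilepsy. Proposed links to neurons include ATP-sensitive potassium channels, adenosine, GABA and glutamate signalling, histone deacetylases, PPAR-alpha and antioxidant defence, and the genes of each were followed here.

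Each of the 8 libraries held between 10078435 and 16111390 reads assigned to genes, and no 2 libraries were copies of each other. Thy1, which is part of the 3xTg transgene cassette, lay between 6952 and 7893 normalised counts in all 8 libraries, against 20385 or more in the 3xTg libraries that match their label, so the 8 libraries did not go against their strain. Outside them, Thy1 went against the genotype label in 3 libraries (1 WT on MCT, 1 3xTg control and 1 3xTg ketogenic). The list medians, correlations and same-sign counts in 3xTg, and some single genes, are also given without these 3. The shares of all genes and the member counts of lists in 3xTg are given only with them. The same holds for the test of the difference between strains and the medians against MCT. The tissue label was checked by its markers: the list for CA1 pyramidal cells had a mean log2 level between 10.17 and 10.44, and that for dentate granule cells between 9.60 and 10.09. A pair of libraries stood apart by Ttr (transthyretin, made by the choroid plexus), at 11390 in WT_C_1 and 3921 in WT_K_1 against 41.2 to 286 in the other 6. One such library was in each group, and results are given with and without both. On principal components of the 8 libraries, the first 3 of which carried between 14.4% and 22.7% of the variance each, the diets did not separate.

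No gene passed the test for a difference between the diets. Of 14162 genes tested with limma on log2(normalised count + 1), 0 (0%) had an adjusted p under 0.05, and the lowest adjusted p was 0.983. An unadjusted p under 0.05 was found for 654 genes (4.62%), of which 298 (2.1%) were higher and 356 (2.51%) lower on the ketogenic diet, while 708 would be reached by a uniform spread of p-values. Tests on the recovered reads gave the same count of 0, with 716 genes at an unadjusted p under 0.05 by edgeR and 614 by DESeq2. In 465 genes (3.28%) the 4 values of one diet all lay above the 4 of the other, 261 (1.84%) with the ketogenic diet higher and 204 (1.44%) lower. The mean difference was above 0 in 49% of genes and below 0 in 51%, with a median of -0.0022 on the log2 scale.

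Because each library is 1 mouse, the spread behind these tests is that between mice, estimated over all 24 libraries in 6 groups. These include the 3 libraries whose Thy1 goes against their genotype label, and 3xTg_K_2 with 2653427 reads. The estimate may thus hold more than the spread between like mice. Without the 3 libraries 698 of 14126 genes had an unadjusted p under 0.05, and the lowest adjusted p was 0.0685 by limma. The median standard error (SE) of a difference was 0.095 on the log2 scale. For 81.6% of genes the whole 95% interval of the difference lay within a 1.5-fold change in either direction, and for 92.5% within a 2-fold change. The precision differed with level: the share within 1.5-fold was 97.6% among the 10591 genes that averaged 100 or more normalised counts and 34.0% among the rest. Estimates beyond 1.5-fold were found for 282 genes and beyond 2-fold for 49. A missed threshold does not show that the diets gave equal levels, so intervals are given below for the genes of ketone and fuel metabolism.

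**Figure D1:**
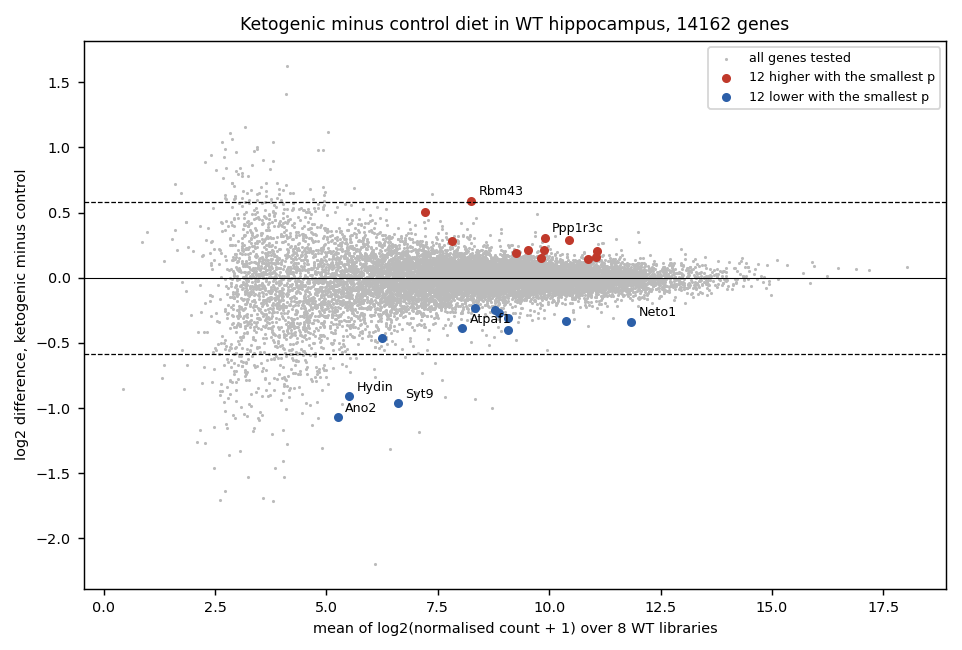
The log2 difference between diets (ketogenic minus control, vertical) is plotted against the mean log2 level over the 8 libraries (horizontal), with 1 point a gene for 14162 genes and dashed lines at a 1.5-fold change. Coloured points are the 12 higher and 12 lower genes with the smallest p, and the cloud narrows as the level increases.

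The 12 genes with the smallest p on each side, counted only where they averaged 32 or more normalised counts and leaving out predicted genes, are given as values. Their unadjusted p lay between 0.000159 and 0.00308, and each had an adjusted p of 0.983 by limma. Among the 12 that were higher on the ketogenic diet the log2 differences ran from 0.14 to 0.59, and in 11 of the 12 the groups did not overlap. Among the 12 that were lower they ran from -1.07 to -0.23, and in 4 of the 12 the groups did not overlap. These genes were picked for their p, so these counts describe the choice and support nothing.

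The gene with the smallest p was Neto1, an auxiliary subunit of kainate-type glutamate receptors. Its normalised counts, given here and below for libraries 1 to 4 of a diet in that order and with the control diet first, were 4520.0, 4172, 4216 and 3641 on the control diet and 3762, 3581, 2901 and 2902 on the ketogenic diet, a log2 difference of -0.34 ± 0.076 (the value after ± is the SE, here and for each log2 difference below) with a 95% interval of -0.49 to -0.18. The groups overlapped at one point, since WT_C_4 lay below WT_K_1. Next came Atpaf1 (chr4:115784812-115818828 in GRCm38), which helps to assemble the mitochondrial ATP synthase. It read 311, 297, 289.8 and 312 against 247, 248, 184 and 250.3, with no overlap and a difference of -0.39 ± 0.091. WT_K_3 was the lowest of its group by a wide margin.

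On the higher side, Cep83 (chr10:94688654-94790853), a protein of the centriole's distal appendages, had the smallest p. Its counts were 676, 679, 649 and 707 on the control diet and 788, 786, 775 and 793 on the ketogenic diet, a difference of 0.21 ± 0.053. The 4 ketogenic values lay close together and above all 4 control values. Ppp1r3c (chr19:36731731-36736653), which targets protein phosphatase 1 to glycogen and favours glycogen synthesis, read 871, 835, 892 and 841 against 931, 1043, 1204 and 1099.8. Here too the groups did not overlap, and the difference was 0.31 ± 0.084 with a fold interval of 1.10 to 1.40.

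The largest difference of the 12 higher genes was that of Rbm43, an RNA-binding motif protein, at 284, 182, 297 and 242 against 361, 332, 465 and 347 and 0.59 ± 0.18. Zfp273, a zinc finger protein, followed at 122, 140.1, 122 and 113 against 172, 174, 182 and 179 and 0.51 ± 0.15. Both were separated between the groups. The 8 others were Trmt5 (0.29), a tRNA methyltransferase, P4ha1 (0.29), a subunit of collagen prolyl hydroxylase, Rnf2 (0.21), a Polycomb ubiquitin ligase, Ccng1 (0.21), cyclin G1 and a p53 target, Fopnl (0.19), a protein of centriolar satellites, Zhx1 (0.16), a zinc finger and homeobox protein, Pik3c3 (0.15), the class III phosphoinositide kinase of autophagy, and Armc1 (0.14), an armadillo repeat protein. Rnf2 was the one of these 8 whose groups overlapped.

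The 3 largest differences on the lower side belonged to genes at low levels. Ano2, a calcium-activated chloride channel, read 38.0, 63.0, 57.0 and 62.7 against 17.8, 43.5, 25.2 and 20.7, a difference of -1.07 ± 0.28, and the groups overlapped. Syt9, a synaptotagmin of synaptic vesicles, read 324, 89.7, 109 and 104 against 86.5, 94.7, 48.5 and 56.3, -0.96 ± 0.29, and WT_C_1 held the one high value. Hydin, of the central pair of motile cilia, read 63.1, 63.0, 55.1 and 65.4 against 28.8, 38.7, 34.0 and 28.7, -0.91 ± 0.27, and its groups stood well apart. Without WT_C_1 and WT_K_1 the Syt9 difference was -0.65 and that of Hydin -0.84.

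The other lower genes were Xylb (-0.46), xylulokinase, Phactr2 (-0.40), a phosphatase and actin regulator, Tenm1 (-0.33), an adhesion protein of synapses, Atm (-0.31), the kinase of the DNA damage response, Sec24d (-0.27), a coat protein of vesicles leaving the endoplasmic reticulum, Ints7 (-0.25), of the Integrator complex, and Cspg4 (-0.23), the NG2 proteoglycan of oligodendrocyte precursors. Sec24d and Cspg4 were separated between the groups. For Atm the difference without the libraries rich in Ttr was -0.18, and for Xylb -0.29, which is over 1.5 times smaller in both.

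**Figure D2:**
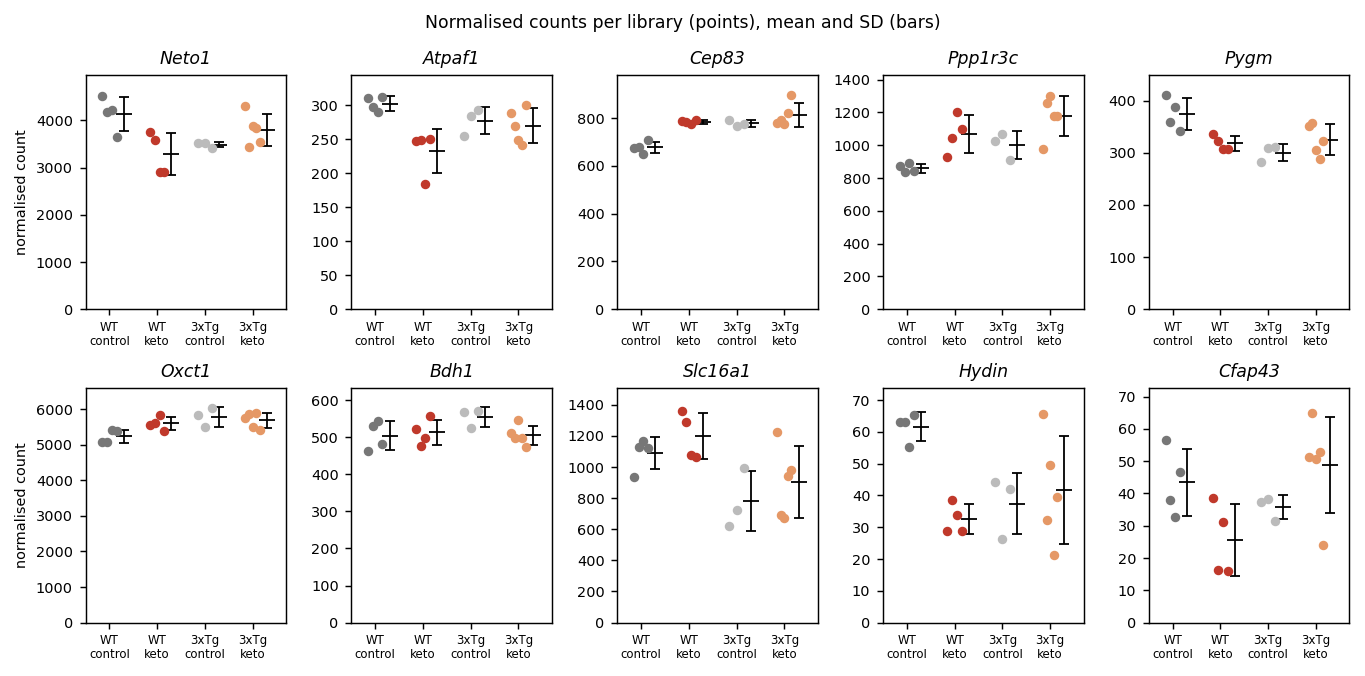
Normalised counts (vertical, from 0) of 10 genes are shown for each library as points, with the mean and SD as bars, for WT and 3xTg mice on the control and ketogenic diets. In WT the groups stand apart for Atpaf1, Cep83, Ppp1r3c, Pygm and Hydin and overlap for the other 5 genes.

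Genes of ketone body use and transport were close to level between the diets. Of 12 tested members of this list 10 were higher in mean on the ketogenic diet (49% of all genes were), with a median log2 difference of 0.043 against -0.0022 over all genes. One of the 12, Oxct1, had an unadjusted p under 0.05 and was higher (2.1% of all genes), none was called, and in no member did the groups separate. Hcar2, the receptor for beta-hydroxybutyrate, and Slc5a8, a sodium-coupled carrier, lay under the filter on low values.

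Oxct1, the enzyme that commits acetoacetate to use as fuel, read 5089.8, 5088, 5419 and 5379 on the control diet and 5562, 5621, 5847 and 5393 on the ketogenic diet. Its log2 difference was 0.096 ± 0.042 (unadjusted p = 0.0298, adjusted p = 0.983 by limma), a fold interval of 1.01 to 1.13, and WT_K_4 lay within the control range. Bdh1, which interconverts the ketone bodies, read 462, 529.5, 544 and 482 and 523, 478, 499 and 557, with a difference of 0.028 and a fold interval of 0.926 to 1.12. The groups overlapped over most of their range, and the sign turned to -0.022 without the libraries rich in Ttr.

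Slc16a1, the monocarboxylate transporter of endothelium and glia, read 936, 1132, 1166 and 1124 against 1359, 1292, 1077 and 1066. Its difference was 0.13, with a fold interval of 0.869 to 1.39. Slc16a3, the monocarboxylate transporter of astrocytes, read 13.9, 4.20, 12.2 and 8.96 against 11.0, 13.5, 18.4 and 16.1, a difference of 0.63 ± 0.33 at low counts, and 0.94 without the libraries rich in Ttr.

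As a mean of log2 levels over its 12 members, the ketone list lay at 8.59, 8.60, 8.70 and 8.71 in the control libraries and 8.83, 8.74, 8.74 and 8.73 in the ketogenic ones. It was the one list of 46 whose levels did not overlap between the diets, and the gap between the closest libraries was narrow. The highest ketogenic value was that of WT_K_1, a library rich in Ttr, and the list's median without both such libraries was 0.021.

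Fatty acid genes showed a similar picture. Of 14 genes of uptake and activation 11 were higher in mean (49% of all genes), with a median of 0.033 and 2 higher at an unadjusted p under 0.05 (2.1% of all genes). These were Fabp3, a cytosolic carrier of fatty acids, at 187, 233, 206 and 190.0 against 211, 266, 257 and 269.8 (0.30 ± 0.11), and Acsl3, a ligase that activates them, at 4152, 3865, 4002 and 3841 against 3848, 4216, 4861 and 4746 (0.15 ± 0.067). The groups overlapped in both. Of 22 genes of mitochondrial and peroxisomal oxidation 15 were higher in mean, with a median of 0.058. Decr1, which handles unsaturated chains, was the one with an unadjusted p under 0.05, at 0.24, and Acadvl, the first dehydrogenase of long chains, lay at 0.12. Cpt1a, the gate of long-chain fatty acids into mitochondria, read 443, 427, 498 and 477 against 501, 416, 402 and 473. The groups overlapped over most of their range, and the fold interval was 0.876 to 1.07.

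Targets of PPAR-alpha, the receptor that fatty acids activate in fasted liver, did not separate the diets. Of 18 tested genes of this list 10 were higher in mean, none had an unadjusted p under 0.05, and the median was 0.026. Pdk4, the kinase that shuts pyruvate dehydrogenase in fasting, read 299.7, 233, 307 and 198 against 214, 295, 422 and 271, with a fold interval of 0.753 to 1.73. Angptl4, a secreted inhibitor of lipoprotein lipase, read 17.6, 26.6, 34.6 and 37.6 against 30.2, 24.2, 34.9 and 31.0, with a fold interval of 0.782 to 1.45. Both varied as much within a diet as between diets. Pparg had the smallest p of the list at -0.47 ± 0.24 and Arrdc3 lay at 0.18 ± 0.096. Fgf21, its co-receptor Klb, Plin5, Vnn1 and Cyp4a14 were the 5 genes of the list under the filter.

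Glucose genes had a median close to 0. Of 23 genes of glucose transport and glycolysis 11 were higher and 12 lower, with a median of -0.0046. The transporter Slc2a1 (GLUT1, of endothelium and astrocytes) read 1333, 1094, 1049 and 925 against 835, 902, 1078 and 1142, with a difference of -0.15 and a fold interval of 0.717 to 1.13. WT_C_1 and WT_K_1 held the highest control and the lowest ketogenic value, and without them the difference was 0.022. The largest difference of the list was that of Slc2a4 (GLUT4, the insulin-responsive transporter) at low counts, 22.3, 12.6, 15.9 and 16.1 against 9.61, 12.6, 11.6 and 8.04 and -0.62 ± 0.39. Its groups did not overlap, by a narrow margin between WT_C_2 and WT_K_2, and its unadjusted p was 0.121. The neuronal transporter Slc2a3 (GLUT3) lay at -0.11 ± 0.060 and Hk1, the first kinase of glycolysis, at -0.10 ± 0.053. Without the libraries rich in Ttr the list's median was -0.054 and the Hk1 difference -0.17, with an unadjusted p of 0.00533.

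Of 13 genes of pyruvate entry and pyruvate dehydrogenase control 7 were higher in mean, with a median of 0.023 and a range from -0.05 to 0.08, and Pdha1, the catalytic subunit, lay at 0.082 ± 0.051.

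Among 13 genes of glycogen metabolism, 3 had an unadjusted p under 0.05 (4.62% of all genes). Ppp1r3c was the one on the higher side, as given above, and the other two were lower. Pygm, the muscle-type glycogen phosphorylase also found in astrocytes, read 410.1, 359, 387 and 342 against 336, 323, 308 and 307, with no overlap and a difference of -0.23 ± 0.072 (unadjusted p = 0.00371). Nhlrc1, the ubiquitin ligase malin that limits glycogen build-up, read 291, 315, 294 and 304 against 303, 278, 222 and 238 with -0.22 ± 0.10. The branching enzyme Gbe1 lay at -0.21 ± 0.11. For each of Ppp1r3c, Pygm and Nhlrc1 the adjusted p by limma was 0.983. Over the list 10 of 13 were lower in mean (51% of all genes were), and the median was -0.037, which turned to 0.0069 without WT_C_2.

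Genes of respiration lay close to 0, on the higher side for most members. Of 70 nuclear genes for subunits of oxidative phosphorylation 59 were higher in mean on the ketogenic diet (49% of all genes were), with a median of 0.052. Without WT_C_1 46 of 70 were higher and the median was 0.031 (49.2% of all genes were higher in that fit). In 5 of the 70 the groups did not overlap, with the ketogenic diet higher (1.84% of all genes). These were Ndufb3, Ndufb5 and Ndufv2 of complex I, Cox7b of complex IV and Atp5c1 of the ATP synthase. One other of the 70, Ndufs8 of complex I, had an unadjusted p under 0.05 and was higher (2.1% of all genes), at 658, 640.2, 749.6 and 722 against 745, 791, 818 and 768 and 0.17 ± 0.082. Ndufb11, also of complex I, lay at 0.16 ± 0.084. The list's mean log2 level ran from 9.84 to 9.95 in the control libraries and from 9.90 to 10.02 in the ketogenic ones, so the groups overlapped. All members were read in the same 8 libraries, so the count of members is not a count of independent results.

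Of 17 genes of the tricarboxylic acid cycle 13 were higher in mean, with a median of 0.035. Of 8 measured genes of the mitochondrial genome 7 were higher in mean, with a median of 0.069 and mt-Nd6 at 0.21 ± 0.13, while mt-Nd3 lay at -0.40 ± 0.23. Their groups overlapped, and none of these 25 genes had an unadjusted p under 0.05.

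Lipid synthesis showed opposite signs in its branches, both small. Of 16 genes of fatty acid synthesis and desaturation 12 were lower in mean, with a median of -0.043. Elovl5, an elongase of polyunsaturated chains, was on the other side at 0.17 ± 0.071 (unadjusted p = 0.021). Of 23 genes of cholesterol synthesis and uptake 17 were higher in mean, with a median of 0.034, and Msmo1, a sterol demethylation enzyme, lay at 0.17 ± 0.079. Without the libraries rich in Ttr the cholesterol median was -0.0043, with 11 of 23 members higher.

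Nutrient signalling was near level. Of 17 genes of insulin and IGF signalling 11 were lower in mean, with a median of -0.047 and Igf1r, the receptor of insulin-like growth factor, at -0.14 ± 0.065. The median turned to 0.011 without WT_C_1, with 10 of 17 higher, and to 0.024 without WT_K_3. Of 21 genes of mTOR and AMPK sensing 11 were lower, with a median of -0.0080 and Mlst8, a subunit of both mTOR complexes, at 0.13 ± 0.061. Among 12 genes tied to beta-hydroxybutyrate and deacetylases, which include class I histone deacetylases and their reported targets, 7 were higher with a median of 0.023. Hdac2 had the smallest p there, at 0.098 ± 0.049.

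Clock genes are known to vary with the hour and immediate early genes with handling, and the hour of collection is not given in the sources used here. Nr1d1 (REV-ERB-alpha) read 722, 876, 766 and 529 against 549, 559, 595 and 608, a difference of -0.30 ± 0.13. Dbp, an output gene of the clock, read 555, 625, 506 and 297 against 292, 353, 422 and 286 with -0.51 ± 0.24. Both were lowest, among the controls, in WT_C_4, which lay below all ketogenic values for Nr1d1 and within their range for Dbp, and Arntl (BMAL1), which cycles in the opposite phase, lay at 0.25 ± 0.14 with WT_C_4 the highest control. Over 18 clock genes 12 were lower, with a median of -0.050 that turned to 0.062 without the libraries rich in Ttr. Of 18 immediate early genes 14 were higher, with a median of 0.095 and Egr1 at 0.26 ± 0.13. Without WT_C_1 alone this median was -0.0034.

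Receptor genes for glutamate leaned to lower means. Of 17 genes for AMPA and kainate receptors and their auxiliary subunits 14 were lower, with a median of -0.047. With all 8 libraries Neto1 was the only member with an unadjusted p under 0.05 (2.51% of all genes were lower with such a p). Without the libraries rich in Ttr 4 of 17 were lower with such a p (3.17% of all genes in that fit), and the median was -0.060. In 1 member other than Neto1 the groups did not overlap, with the ketogenic diet lower (1.44% of all genes). Grik4, a kainate receptor subunit of CA3, lay at -0.16 ± 0.091 and Gria4 of AMPA receptors at -0.12 ± 0.068. Of 13 genes for NMDA and metabotropic receptors 9 were lower, with a median of -0.028 and Grin2b, the GluN2B subunit, at -0.11 ± 0.087. In the glutamate and glutamine cycle 8 of 12 were lower, with a median of -0.021.

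For inhibition, 7 of 20 genes of GABA synthesis, transport and receptors were higher and 13 lower, with a median of -0.018. Gabrd, the delta subunit of extrasynaptic receptors, read 240.3, 234, 213 and 203 against 209, 265, 288 and 276 with 0.21 ± 0.097, and Gabrb1 lay on the other side at -0.11 ± 0.049. The 2 subunits differed in sign, and the groups overlapped for both.

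Of 11 genes of ATP-sensitive potassium channels and adenosine 9 were higher in mean, with a median of 0.12, the largest among the 29 pathway lists, and none had an unadjusted p under 0.05. Adk, the kinase that clears adenosine, read 833, 817, 830.0 and 822 against 857, 932, 961 and 881, with no overlap and 0.14 ± 0.068. Kcnj11, the pore of the neuronal channel, read 241, 293, 257 and 267 against 298, 272, 290.3 and 358, with overlap and 0.20 ± 0.12. Among 7 tested genes of neurotrophins and their receptors, Ntrk2 (TrkB) read 10049.6, 10171, 10223 and 10137 against 10032, 9142, 8021 and 9598, -0.15 ± 0.061 (unadjusted p = 0.0236), and all 4 ketogenic values lay below the controls, by a narrow margin between WT_K_1 and WT_C_1. Bdnf, its ligand, lay at 0.18 ± 0.13 with overlap.

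Stress genes leaned to higher means with wide spread between mice. All 19 tested genes of heat shock and endoplasmic reticulum stress were higher in mean, with a median of 0.11, yet none had an unadjusted p under 0.05 and in none did the groups separate. Hspa8, the constitutive HSP70, read 3649, 2028, 3988 and 5828 against 4123, 4419, 6377 and 3881, 0.35 ± 0.19, and Atf4, a regulator of the integrated stress response, lay at 0.20 ± 0.099. The list's mean log2 level ran from 9.49 to 9.78 in the control libraries and from 9.53 to 10.03 in the ketogenic ones, with WT_K_3 the highest. The 19 genes were read in the same 8 libraries, so 19 of 19 is not 19 independent results.

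Antioxidant genes under NRF2 divided evenly, 9 of 18 higher and 9 lower, with a median of 0.0092, and Nfe2l2, which encodes NRF2, lay at 0.16 ± 0.10. Of 14 glucocorticoid-responsive genes 9 were higher, with a median of 0.029 that was 0.18 without the libraries rich in Ttr, and Nfkbia lay at -0.21 ± 0.21. Interferon-response genes were lower in 10 of 15, with a median of -0.049, and Bst2 (tetherin) read 21.3, 15.4, 11.2 and 14.3 against 9.61, 5.80, 8.74 and 6.89 with no overlap and -0.91 ± 0.45. These are low levels, and the adjusted p was 0.983 by limma.

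Glial activation lists gave no called gene. Of 12 reactive astrocyte genes 7 were higher, with a median of 0.039, and the complement gene C3 lay lower at 64.0, 29.4, 55.1 and 17.9 against 20.6, 13.5, 31.1 and 8.04, -1.13 ± 0.40 (unadjusted p = 0.00941, adjusted p = 0.983 by limma). The C3 groups overlapped. Of 12 genes of plaque-associated microglia 9 were higher, with a median of 0.039 and Tyrobp, an adaptor of microglial receptors, at 0.21 ± 0.11. Over all 29 pathway lists the medians were at most 0.12 in size on the log2 scale. With each of the 8 libraries left out in turn, the sign of the median turned at least once in 27 of the 46 lists, 9 of them without WT_C_1, and kept its direction in 19. It ran from 0.032 to 0.073 for the ketone list, from 0.089 to 0.14 for heat shock and endoplasmic reticulum stress, from -0.18 to 0.061 for interferon response and from -0.023 to 0.22 for immediate early genes.

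**Figure D3:**
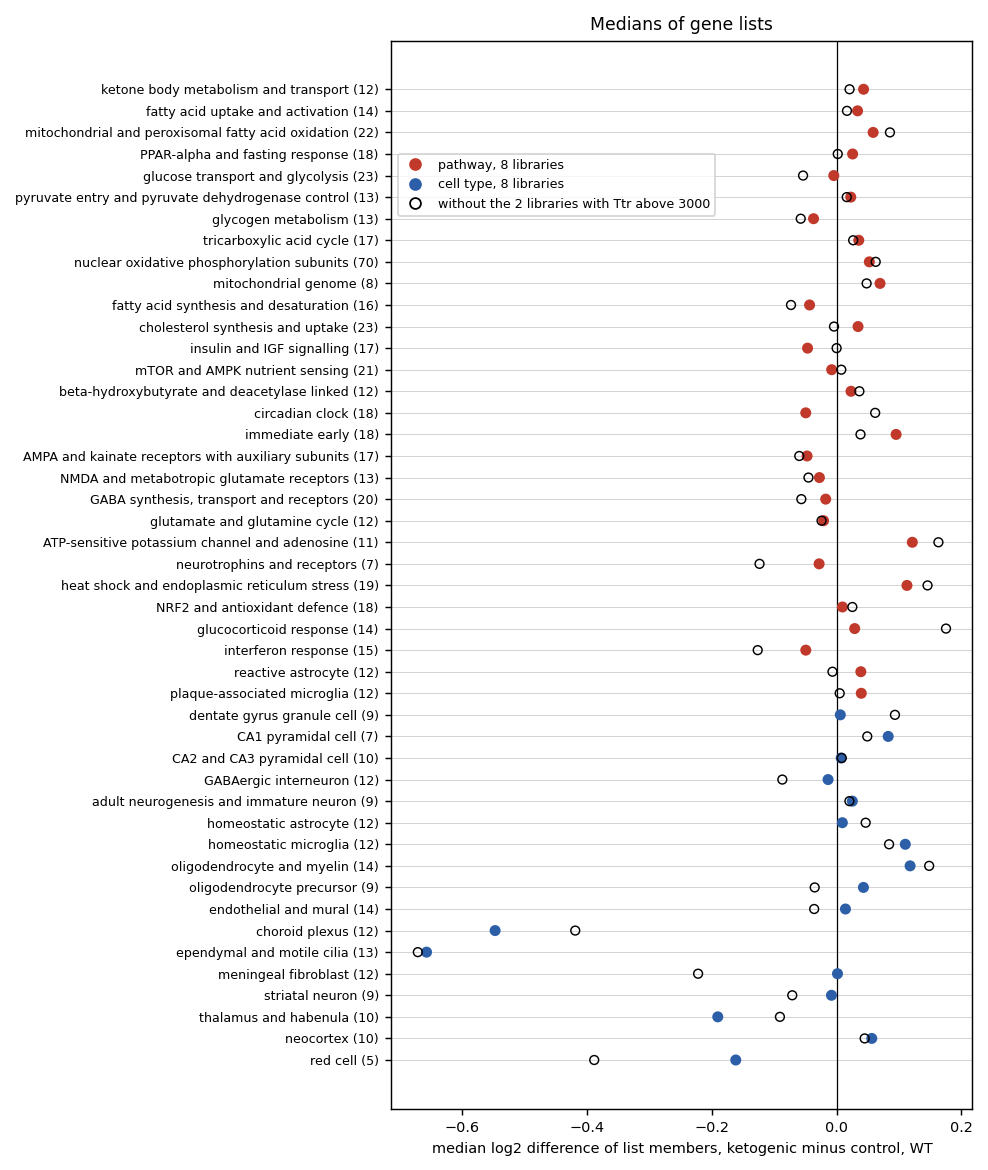
The median log2 difference (horizontal, ketogenic minus control in WT) is shown for each of 46 gene lists, with the number of tested members in brackets. Filled points use all 8 libraries and open points leave out the 2 libraries with Ttr above 3000; medians of pathway lists lie near 0 and those of the choroid plexus and ependymal lists lie lowest.

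Markers of the main hippocampal cell types stayed near 0. In bulk tissue, fewer cells of a type and less RNA per cell cannot be told apart. The median was 0.0058 for 9 genes of dentate granule cells, 0.083 for 7 of CA1, 0.0072 for 10 of CA2 and CA3, and -0.014 for 12 of interneurons. In the CA2 and CA3 list, Rgs14, a signalling regulator of CA2, read 693, 915, 852 and 795 against 962, 945, 942 and 984, with no overlap and 0.24 ± 0.090, while the adhesion gene Amigo2 lay on the other side at -0.26 ± 0.12. Immature neuron genes had a median of 0.025, with Sox4 at 0.23 ± 0.091.

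Glial and vascular lists were close to 0 too. Of 14 myelin genes 13 were higher in mean, with a median of 0.12 and Myrf, the regulator of myelin genes, at 0.16 ± 0.11, but the list's levels overlapped and no member had an unadjusted p under 0.05. The same held for 11 of 12 genes of homeostatic microglia, with a median of 0.11. Astrocyte genes had a median of 0.0091, with Slc4a4, a bicarbonate transporter, at -0.17 ± 0.055, and endothelial and mural genes a median of 0.014, with Tek, the angiopoietin receptor, at -0.39 ± 0.18. Cspg4 of the precursor list, given above, lay lower while the list's median was 0.043.

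Of the 46 list medians, that of ependymal cells and motile cilia lay farthest from 0 with all 8 libraries. By the difference in mean log2 level the choroid plexus list was slightly farther, at -0.55 against -0.52. Ependymal cells line the ventricles beside the hippocampus and beat cilia that move cerebrospinal fluid, and the transcription factor Foxj1 together with RFX factors switches on the genes of such cilia. Of 13 tested members 12 were lower in mean on the ketogenic diet, with a median of -0.66. An unadjusted p under 0.05 with the ketogenic diet lower was found for 5 of the 13 (2.51% of all genes), in 2 the groups did not overlap, with the ketogenic diet lower (1.44% of all genes), and none was called. The 2 without overlap were Hydin and Dynlrb2, and the 5 were Hydin, Cfap43, Spag17, Dnah11 and Foxj1. All are at low levels, where the SE was 0.25 or more.

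Since these genes share a cell type and reported regulators, the 250 bases before the start of 3 of the 5 are shown from RefSeq (GRCm38.p6), 5′ to 3′ on the strand of the gene, with matches in capitals to GTTGCC, a half-site of RFX factors, or to GTAAACA, the forkhead core, searched on both strands. The window of Hydin is chr8:110266727-110266976 (+), Cfap43 at chr19:47837362-47837611 (-) and Spag17 at chr3:99885167-99885416 (+).
Hydin: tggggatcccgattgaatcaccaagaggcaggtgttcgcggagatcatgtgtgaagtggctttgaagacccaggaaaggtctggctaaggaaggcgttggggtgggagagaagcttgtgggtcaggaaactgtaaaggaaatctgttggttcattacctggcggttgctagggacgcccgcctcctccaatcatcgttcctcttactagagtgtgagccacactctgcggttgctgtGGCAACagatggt
Cfap43: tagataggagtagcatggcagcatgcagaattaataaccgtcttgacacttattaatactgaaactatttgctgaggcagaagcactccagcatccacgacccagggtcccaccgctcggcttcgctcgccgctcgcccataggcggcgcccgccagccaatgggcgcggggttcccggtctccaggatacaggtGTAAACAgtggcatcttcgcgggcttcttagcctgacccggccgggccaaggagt
Spag17: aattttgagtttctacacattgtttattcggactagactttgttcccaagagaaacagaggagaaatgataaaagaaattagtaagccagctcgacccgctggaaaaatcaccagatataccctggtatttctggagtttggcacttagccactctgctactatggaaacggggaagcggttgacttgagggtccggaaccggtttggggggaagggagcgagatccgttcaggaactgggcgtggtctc
Hydin had the RFX half-site on its opposite strand, read as GGCAAC, 13 bases before the start. Cfap43 had the forkhead core 55 bases before the start, and Spag17 had neither in this window. Over the 11 of 14 list genes found in the table, 4 held the RFX half-site in any of their promoters and 2 the forkhead core. Of 32851 single promoters 10.4% held the RFX half-site and 3.17% the forkhead core. The former are counts of genes and the latter shares of promoters, so they cannot be compared directly. Sntn, the one member higher in mean on the ketogenic diet, held both motifs. The 2 motifs share no overlap in these letters, and a match is a description, not a site of binding.

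Hydin, whose values are given above, was separated by diet. Cfap43, an axonemal protein of motile cilia, read 56.6, 37.8, 32.7 and 46.6 against 38.4, 16.4, 31.1 and 16.1, a difference of -0.81 ± 0.28 (unadjusted p = 0.00842), and the groups overlapped. Spag17, of the central pair, read 21.3, 14.0, 22.4 and 27.8 against 9.61, 19.3, 9.71 and 9.18 with -0.82 ± 0.31, and WT_K_2 alone of the ketogenic libraries lay in the control range. Dnah11, an outer dynein arm heavy chain, read 50.1, 26.6, 37.4 and 28.7 against 24.7, 28.0, 10.7 and 23.0 with -0.74 ± 0.30, and its groups overlapped. Foxj1 read 90.0, 79.8, 103 and 108 against 97.5, 69.6, 58.2 and 42.5 with -0.55 ± 0.25, and here WT_K_1, a library rich in Ttr, was the one within the control range. Dynlrb2, a dynein light chain, read 17.6, 14.0, 19.6 and 24.2 against 12.4, 10.6, 12.6 and 6.89, a difference of -0.78.

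The adjusted p of Hydin, Cfap43, Spag17, Dnah11 and Foxj1 was 0.983 by limma. As a mean of log2 levels, the list lay at 5.38, 4.90, 5.34 and 5.47 on the control diet and 5.04, 4.87, 4.73 and 4.38 on the ketogenic diet. WT_C_2 and WT_K_1 crossed, so the groups overlapped. Sntn was the one member with a mean above 0, at 0.24, and Mia lay under the filter. With a filter at a mean of 50, which keeps only the higher members, the median was -0.25.

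Choroid plexus RNA, which can enter a hippocampal dissection from the ventricle, differed more between libraries than between diets. All 12 tested choroid plexus genes were lower in mean on the ketogenic diet, with a median of -0.55, and none had an unadjusted p under 0.05. Without WT_C_1 alone the direction turned: 9 of 12 were higher (49.2% of all genes in that fit), the median was 0.26, and 2 were higher at an unadjusted p under 0.05 (1.68% of all genes), while 0 genes (0%) were called. Ttr read 11389.5, 286, 278 and 41.2 against 3921, 99.6, 169.9 and 42.5, a difference of -0.93 ± 1.27. In both groups 1 library held nearly all of it. Calml4 had the smallest p of the list, at -0.78 ± 0.46. The list's level was 8.32 in WT_C_1 and 7.23 in WT_K_1, against 4.50 to 5.56 in the other 6.

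Repeating the comparison without WT_C_1 and WT_K_1 left 3 libraries a group and 14120 genes, of which 0 (0%) were called. The choroid plexus median was then -0.42, with 9 of 12 lower (50.1% of all genes). The ependymal median was -0.67, with 12 of 13 lower and 5 of 13 lower at an unadjusted p under 0.05 (3.17% of all genes in that fit, and 2.69% higher). With all 8 libraries the ependymal median was -0.66. The part of ventricular lining in the remaining libraries was not tested. With the choroid plexus level as a covariate 0 genes (0%) were called, and 51.2% of all genes lay below 0. The ependymal median was then -0.52, with 4 of 13 lower at an unadjusted p under 0.05 (2.03% of all genes). The choroid plexus median was 0.064, but the covariate is the mean of these same genes. Their mean difference is fixed at 0 by that fit, so this median is no result about the diets.

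Genes of thalamus and habenula, which lie next to the hippocampus, followed 1 library. Of 10 members 8 were lower in mean, with a median of -0.19 (51% of all genes were lower), and 2 were lower at an unadjusted p under 0.05 (2.51% of all genes). Gpr151, a receptor of habenula neurons, read 187, 12.6, 13.1 and 8.96 against 13.7, 9.67, 7.77 and 9.18, and Tac2, a tachykinin of the habenula, read 90.0, 29.4, 29.0 and 28.7 against 17.8, 27.1, 31.1 and 19.5. WT_C_1 alone was high in both. Their differences were -1.17 ± 0.55 and -0.71 ± 0.30 with all 8 libraries and -0.33 and -0.18 without WT_C_1 and WT_K_1, where the list's median was -0.091.

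**Figure D4:**
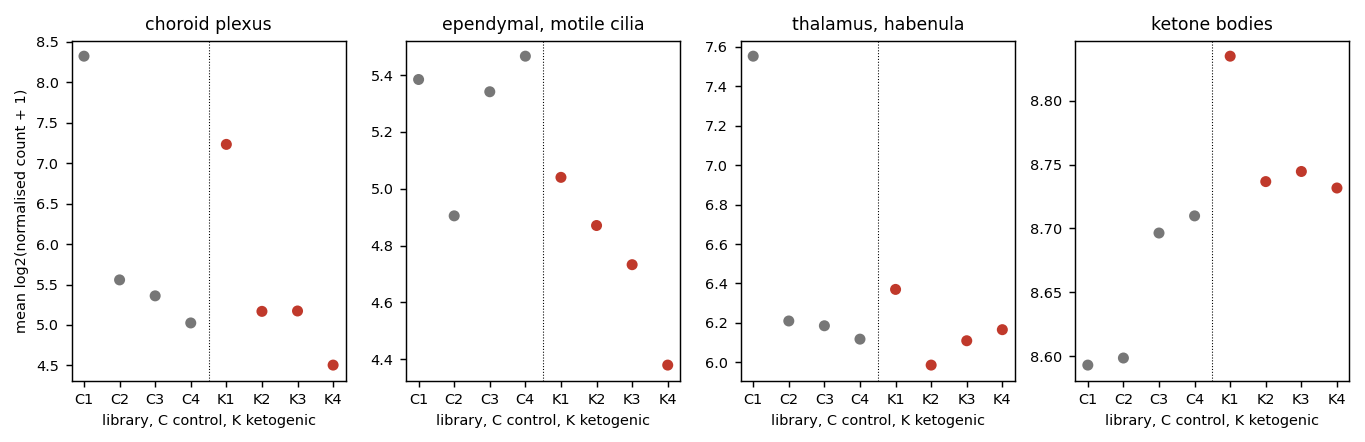
The mean log2 level of 4 lists (vertical, axes do not start at 0) is shown for each of the 8 WT libraries (horizontal, C control and K ketogenic). C1 and K1 stand far above the rest for the choroid plexus, and C1 alone for thalamus and habenula. Of these 4 lists only that of ketone bodies has groups that do not overlap, by a narrow gap.

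Other lists of neighbouring tissue and blood had medians closer to 0 than that of the ependymal list. Meningeal fibroblast genes divided 6 and 6, with a median of 0.0013 that was -0.22 without the libraries rich in Ttr, and Dcn (decorin) lay at -0.55 ± 0.29. Striatal genes had a median of -0.0083, neocortical genes 0.056 with Lamp5 at 0.19 ± 0.11, and 5 red cell genes -0.16 with Hba-a2 at -0.37 ± 0.41.

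The 3xTg mice on the same diets gave a comparison that shares no library with the WT one. Its ketogenic library 3xTg_K_2 held only 2653427 reads and 14608 detected genes. The other 3xTg control and ketogenic libraries held 12236402 reads or more. All 3xTg differences, medians and correlations below include 3xTg_K_2, and its effect on them was not tested. In the 3xTg comparison too, 0 of 14162 genes (0%) were called, with 3.36% higher and 3.33% lower at an unadjusted p under 0.05. Of the differences 47.9% lay above 0 and 52.1% below. Of the 24 genes with the smallest p in WT, 13 had the same sign in 3xTg, 7 of the 12 higher and 6 of the 12 lower. One of the 24, Ppp1r3c, had an unadjusted p under 0.05 in 3xTg. Without the 3 libraries that go against their genotype label 14 of the 24 had the same sign, and Ppp1r3c was again the one with such a p.

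Ppp1r3c read 1024, 1071 and 910.1 in the 3xTg control libraries and 976, 1259, 1297, 1175 and 1181 in the ketogenic ones, a difference of 0.23 ± 0.087 beside 0.31 ± 0.084 in WT (0.23 in 3xTg without the 3 libraries). The groups overlapped in 3xTg through 3xTg_K_1, 1 of the 3 libraries that go against their genotype label. Neto1 lay at 0.12 ± 0.078 in 3xTg, on the other side of 0 from WT, Atpaf1 at -0.041 ± 0.094, Cep83 at 0.062 ± 0.055 and Hydin at 0.087 ± 0.28. Without the 3 libraries Neto1 lay at 0.060 and Hydin at -0.00066. Pygm lay at 0.11 ± 0.074 in 3xTg, also with the sign turned. Nr1d1 lay at -0.30 in WT and -0.27 in 3xTg, and Dbp at -0.51 and -0.42. Without the 3 libraries the 3xTg values were -0.11 and -0.30.

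Across all 14162 genes the differences in the 2 strains had a Pearson correlation of -0.024 and a Spearman correlation of -0.053, which describes genes and not replicates. Of the 654 genes with an unadjusted p under 0.05 in WT, 269 (41.1%) had the same sign in 3xTg, against 46.9% of all genes. Without the 3 libraries that go against their genotype label these values were -0.023, -0.037, 46.3% and 47.7%. The test of the difference itself (the diet effect in WT minus that in 3xTg) called 0 genes (0%), with 6.68% at an unadjusted p under 0.05 and 3.34% on the lower side. Among the 24 genes its lowest adjusted p was 0.724 by limma.

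Lists set beside each other in the strains were as follows. For oxidative phosphorylation 59 of 70 genes were higher in WT and 4 of 70 in 3xTg, with medians of 0.052 and -0.11. For motile cilia 1 of 13 was higher in WT and 11 of 13 in 3xTg, with medians of -0.66 and 0.087. In the test of the difference between strains 6 of these 13 had an unadjusted p under 0.05 on the lower side (3.34% of all genes) and none was called. Interferon-response genes had medians of -0.049 in WT and 0.59 in 3xTg, immediate early genes 0.095 and 0.33, and ketone genes 0.043 and -0.046. Without the 3 libraries that go against their label the 3xTg medians were -0.12 for oxidative phosphorylation, 0.14 for motile cilia, 0.90 for interferon response, 0.22 for immediate early and -0.022 for ketone genes. Heat shock and endoplasmic reticulum stress genes had medians of 0.11 and 0.14, the latter 0.030 without those 3.

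**Figure D5:**
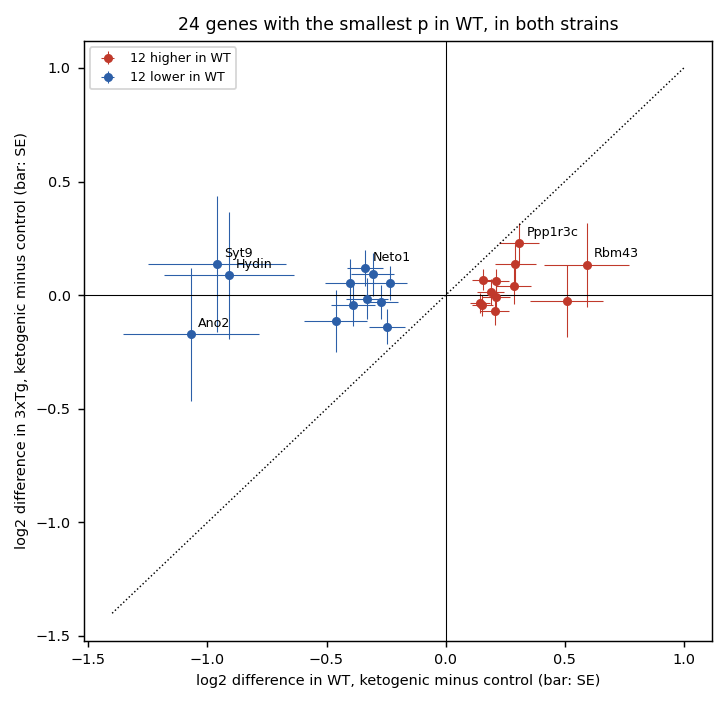
The log2 difference between the ketogenic and control diets in 3xTg (vertical) is plotted against that in WT (horizontal) for the 24 genes with the smallest p in WT, with SE bars and a dotted line of equality. Most points lie near 0 in 3xTg, with 13 of the 24 on the same side of 0 as in WT.

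The WT mice on MCT are set beside the others as values, since a comparison of MCT with either diet would share libraries with the one described here. Neto1 read 3739, 3874, 3828 and 3646 on MCT, between the means of the control and ketogenic groups at 4137 ± 365 and 3286 ± 451 (SD over 4 libraries). Ppp1r3c read 953, 1128, 926 and 1111 on MCT, beside 859.8 ± 26.5 on the control and 1069 ± 114 on the ketogenic diet. Hydin read 45.2, 29.8, 31.6 and 59.3, beside 61.7 ± 4.49 and 32.5 ± 4.76. The second MCT library is the one that goes against its genotype label. In ketogenic minus MCT, 1.69% of genes were lower at an unadjusted p under 0.05, and the ependymal median was -0.29; in MCT minus control it was -0.27.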

How the data were processed

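Hippocampal messenger RNA of 24 female mice was sequenced, 1 library a mouse, from poly(A) libraries made with 11 cycles of PCR, per the labels' protocols. Reads were trimmed with Trimmomatic and aligned with STAR to GRCm38, per the submitters' processing notes. For the gene counter, annotation, scaling and use of molecular identifiers, the tool is not given in the sources used here. In the deposited table the authors give 21793 genes as a signal, namely normalised counts of reads. In 23 of the 24 columns the values were checked to be whole multiples of 1 step within 0.01 reads, and the same division gave whole reads in the last, so reads were recovered for edgeR 4.0.16 and DESeq2 1.42.0 as alternatives. By symbol, 21556 genes matched 1 gene of GENCODE M21, 27 several and 210 none, and 26 names altered to dates have no position.

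Genes that reached 10 in 3 or more libraries were kept. Log2(value + 1) was fitted with limma 3.58.1 (R 4.3.3), 1 mean for each of 6 groups over 24 libraries, two-sided, with Benjamini-Hochberg adjustment at 0.05 and code tested on simulated data. An outlying library was looked for with Dixon's ratio. The genes named are the 12 higher and 12 lower with the smallest p and a mean of at least 32, up to 4 members of each list with the smallest p, and a fixed set of ketone, fuel and check genes. A few others (Foxj1, Dynlrb2, Sntn, Mia, Ndufb3, Ndufb5, Ndufv2, Cox7b, Atp5c1, Hcar2, Slc5a8, Fgf21, Klb, Plin5, Vnn1, Cyp4a14, Pax3, Mc3r) were named after their values were seen. Some genes that the rule picks are not reported here. The members and the 46 lists (691 genes, 663 kept) were chosen with earlier results of these data known. Pseudocounts, filters, scalings, fits, weights, a covariate and left-out libraries were tried as alternatives. Precision comes from reads per library (10078435 to 16111390 here) and 4 mice a group.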

Additional observations from a re-analysis of the deposited data

Results flagged for a closer look

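The genes named were checked in each WT group for 1 library far from the other 3, measured as its gap to the nearest library over the group's range, against the 95% critical value of Dixon for 4 libraries. Of 192 groups tested 9 exceeded it, and chance alone flags about 1 in 20. In 6 of the 9 the library was WT_C_1, which also had the highest Ttr. There Ttr (0.978), the habenula genes Tac2 (0.988) and Gpr151 (0.977), Syt9 (0.916) and Calml4 (0.911) were high and Hk1 (0.891) was low. Ttr was also high in WT_K_1 (0.967). Spag17 was high in WT_K_2 (0.948), and Atpaf1 low in WT_K_3 (0.952), at 247, 248, 184 and 250.3 over the 4 ketogenic libraries. The part of tissue from outside the hippocampus in the values of WT_C_1 was not tested.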

How the results depend on the processing

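The count of 0 genes called held in 23 of 24 alternatives. Without a filter on low values 2 genes were called, Pax3 (adjusted p = 0.0167) and Mc3r (adjusted p = 0.011 by limma), both at 0 in every ketogenic library and at most 4.67 in any control, so at a few reads each. Over the other 23 the lowest adjusted p ran from 0.0685 (without the 3 libraries that go against their genotype label) to 0.9999, and over the fits that leave out 1 WT library from 0.109 to 0.9999. The count of genes whose groups do not overlap was 465 with 4 mice a group, 1845 without the libraries rich in Ttr (3 against 3) and 729 to 1188 with 1 library left out, since fewer samples overlap less. The share of genes within 1.5-fold was 66.8% or more in every alternative fitted with limma, and the edgeR and DESeq2 tests gave no interval. Replicate numbers did not pair the mice (same-number correlations of deviations from -0.143 to 0.0075), and a fit with a replicate block called 0 genes, as did one in the 8 libraries alone, added after seeing the data.

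Of 2288 values for 96 genes, 13 changed sign, in 7 genes whose differences did not pass the test, and 0 were newly called. Without the libraries rich in Ttr the values were -0.0219 for Bdh1, 0.0217 for Slc2a1, -0.1304 for Angptl4, -0.0087 for Thy1 and 0.0134 for Nfkbia. With library weights Angptl4 lay at -0.0551. With the choroid plexus level as a covariate Ttr, itself part of that level, lay at 0.3203 and Thy1 at -0.0632. Leaving out 1 library gave -0.0128 to 0.0655 for Bdh1, -0.1012 to 0.0047 for Cpt1a, -0.1246 to 0.2261 for Angptl4 and -2.2866 to 0.6335 for Ttr. The cause was not tested. Of 1104 list medians 5 moved by more than the spread between mice. Low levels limit what can be seen: among genes with a mean below 100, 34.0% of intervals lay within 1.5-fold.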

Other observations

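On the first principal component of the 8 WT libraries, which carried 22.7% of the variance, the genes with the highest loadings were Trim12a (-0.114), Eno1b (-0.113) and Rps3a1 (0.107), with Ttr next at -0.0882. On the second they were choroid plexus genes, Ttr (0.146), Clic6 (0.103, a chloride channel protein) and Kcnj13 (0.102, a potassium channel). WT_K_1 lay at -26.5 and WT_K_3 at 20.2 on the first component, so its ends were both ketogenic libraries. WT_C_1 and WT_C_2 lay at 23.7 and 17.2 on the second, above the other 6. These genes were chosen by their loadings, after their values were seen.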
